A study of Mus musculus with 6 samples.

Results

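Hepatokines are proteins that hepatocytes secrete into the blood and that act on other organs. The transcripts of 8 of them were followed here in mouse liver: the fibroblast growth factor Fgf21, the angiopoietin-like genes Angptl4, Angptl6 and Angptl8, the fetuins Ahsg and Fetub, the leukocyte-derived chemotaxin Lect2 and the growth differentiation factor Gdf15. They were picked by gene symbol, each symbol matched 1 row, and the 8 rows were taken from tables of 50600 genes. The Dicer LKO group had 3 libraries, from livers with the genotype Dicerloxp/loxp;Alb-cre, in which the albumin promoter drives Cre in hepatocytes so that Dicer1 is deleted there. The control group also had 3 libraries, from Dicerloxp/loxp livers, which carry the same loxP-flanked alleles without Cre. All samples were whole liver of C57BL/6 mice at the postnatal age of 1 month, and the comparison asks how liver transcripts differ when hepatocytes cannot cut miRNA precursors into mature miRNAs. A library of mice with Cre alone was not among the groups analysed here. The labels do not say whether each sample is a separate animal, and the p-values therefore reflect only the scatter among these 6 samples, some of which may be technical. In whole tissue, fewer cells of a type and less RNA per cell cannot be told apart.

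These hormones fall into a few systems. FGF21 is released during fasting and amino acid shortage, its gene is a target of the nuclear receptor PPARα and of the transcription factor ATF4, and it signals through FGF receptors paired with the co-receptor β-Klotho. ANGPTL4 and ANGPTL8 restrain lipoprotein lipase, the enzyme that frees fatty acids from circulating triglyceride; Angptl4 is turned on in fasting and Angptl8 by feeding and insulin. Fetuin-A, the product of Ahsg, binds calcium phosphate in plasma and inhibits the insulin receptor, fetuin-B inhibits the egg-coat protease ovastacin, LECT2 attracts neutrophils and binds the receptor tyrosine kinases MET and TIE1, and GDF15 lowers food intake through the brainstem receptor GFRAL.

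Library totals were 22257541 to 25049749 counts for Dicer LKO, against 14141973 to 22152506 counts for the controls. Dicer1 was at 28.9, 31.2 and 24.4 CPM (read counts scaled to a common library total) in Dicer LKO and at 42.5, 69.3 and 56.1 CPM in the controls, without overlap and in the direction of the labels. Dicer1 had a log2 fold change of −0.99 (SE 0.20) and was not called (edgeR adjusted p = 0.0622). The count covers the whole gene and every cell of the liver, not the deleted part alone. Hepatocyte markers summed to 72173 to 83450 CPM in Dicer LKO and 50231 to 86497 CPM in the controls, with all 8 genes of the list measured. Control replicate 3 stood apart: 7 skeletal muscle genes summed to 1899 CPM in it, against 0.191 to 0.876 CPM in Dicer LKO and 0.901 to 1.10 CPM in the other controls, and its mitochondrial share was 10.19%, while the other libraries had 4.62% to 6.46%. Values without that library are therefore given for each of the 8 genes and for the lists around them. Markers of other liver cells were higher too without overlap: bile duct markers summed to 147 to 276 CPM in Dicer LKO and 38.4 to 54.5 CPM in the controls (3 of 8 called), stellate cell markers to 520 to 580 CPM in Dicer LKO and 385 to 447 CPM in the controls (1 of 8 called), and erythroid markers to 1145 to 2135 CPM in Dicer LKO and 284 to 381 CPM in the controls (6 of 8 called). Neutrophil markers summed to 34.6 to 78.8 CPM in Dicer LKO and 1.66 to 23.4 CPM in the controls, also without overlap but with 0 of 7 tested called, and macrophage markers, at 364 to 441 CPM in Dicer LKO and 185 to 414 CPM in the controls, overlapped. Their part in the results was not tested. CPM values are scaled by library size and TMM factor. Unless another test or fit is named, adjusted p-values come from edgeR's quasi-likelihood test over 14314 genes. The adjustment was that of Benjamini and Hochberg, and genes were called under 0.05.

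Of the 8 genes, all of which passed the filter on low counts, 1 was called by edgeR, Angptl4, which was higher in Dicer LKO, against 1.29% of all genes called in either direction (0.741% higher and 0.552% lower). The libraries of the groups did not overlap for 5 of the 8 (Angptl4, Ahsg and Fetub above the controls, Angptl6 and Angptl8 below), against 28.0% of all genes. The same 5 had an unadjusted p under 0.05, against 21.0% of all genes. The median log2 fold change of the 8 was 0.13, with 4 positive and 4 negative, and that of all genes was −0.01 with 48.6% positive.

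**Figure D1:**
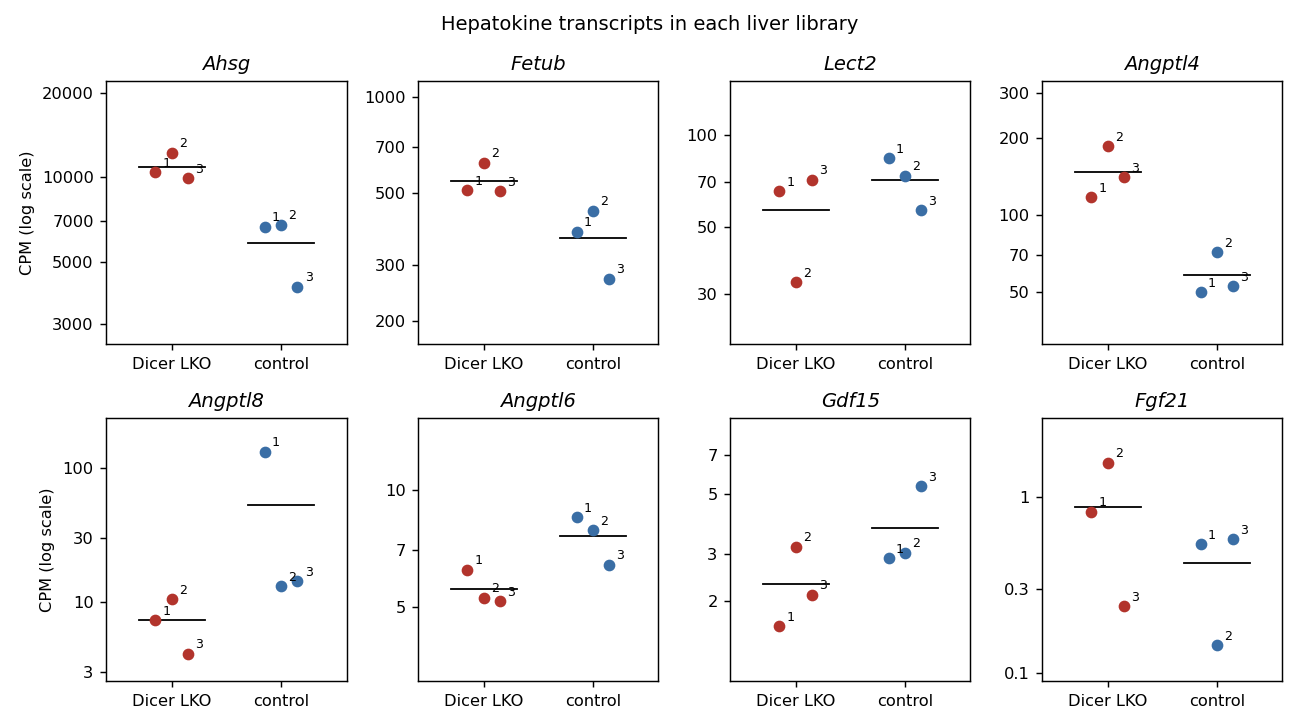
CPM on a log axis of the 8 hepatokine transcripts in 3 Dicer LKO and 3 control libraries; points are libraries with their replicate number, lines are group means. The Angptl4 points lie at 117 to 185 CPM in Dicer LKO and 50.0 to 71.4 CPM in the controls, while Angptl8 has a single high control at 132 CPM.

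The levels of the 8 transcripts differed by several orders of magnitude. In TPM, a transcript's share of its library, which corrects for length and so allows genes to be compared, Ahsg was the highest at 5713 ± 310 in Dicer LKO and 3323 ± 799 in the controls (mean ± SD, n = 3 each), ranking 14 and 21 among all genes of the tables. Fetub followed at 281 ± 19.2 TPM in Dicer LKO and 201 ± 41.3 TPM in the controls. Fgf21 was the lowest at 0.767 ± 0.555 TPM in Dicer LKO and 0.410 ± 0.243 TPM in the controls. The order between them differed by group. In Dicer LKO it ran Lect2, Angptl4, Angptl8, Angptl6, Gdf15, and the libraries of the neighbours Lect2 and Angptl4, and of Gdf15 and Fgf21, overlapped. In the controls it ran Lect2, Angptl8, Angptl4, Angptl6, Gdf15, and Angptl8 overlapped both of its neighbours. Angptl4 thus stood above Angptl8 in every Dicer LKO library, where Angptl8 reached 21.4, 19.9 and 9.73 per 100 Angptl4 transcripts, against 865, 60.0 and 83.9 per 100 in the controls.

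Angptl4 (ENSMUSG00000002289.15, chromosome 17, 33773750 to 33781830, minus strand, GRCm38) encodes an inhibitor that inactivates lipoprotein lipase. It was at 117, 185 and 140 CPM in Dicer LKO replicates 1, 2 and 3 and at 50.0, 71.4 and 52.6 CPM in the control replicates. Each Dicer LKO library lay above each control. The means were 147 ± 34.6 CPM in Dicer LKO and 58.0 ± 11.6 CPM in the controls (SD, n = 3 each), a 2.54-fold rise with a log2 fold change of 1.34 (SE 0.22, adjusted p = 0.0398, edgeR quasi-likelihood). The call was narrow: it was lost without each of the 6 libraries in turn, with log2 fold changes of 1.19 to 1.54 and adjusted p-values of 0.0577 to 0.125 by the same test, the highest without control replicate 3 (1.30). Endothelial cells, adipocytes and heart muscle also express Angptl4. Endothelial markers summed to 413 to 542 CPM in Dicer LKO and 287 to 363 CPM in the controls, with 1 of 8 called higher (Vwf), and their part in the result was not tested. Adipocyte markers summed to 0.757 to 2.25 CPM in Dicer LKO and 0.432 to 6.95 CPM in the controls, with leptin (Lep) at 0 in every library. Heart muscle markers summed to 21.7 to 28.0 CPM in Dicer LKO, against 22.4 to 118 CPM in the controls. In Dicer LKO replicates 1 and 2 the sum was mostly Csrp3, at 20.1 and 26.1 CPM. Nppa, Myh6, Actc1, Myh7, Mybpc3 and Pln were at 0 in both and were detected in Dicer LKO replicate 3 and every control. Nppa was at 3.7 CPM in Dicer LKO replicate 3 and 3.83 to 4.97 CPM in the controls. Myh7 gave 79.2 of the 118 CPM in control replicate 3. The part of heart tissue in the Angptl4 values was not tested. The closest profiles to Angptl4 over the 6 libraries were those of Tmem71 and of the adhesion scaffold gene Nedd9, with root mean square differences of 0.114 and 0.143 in log2(CPM + 0.5) centred on each gene's mean.

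Because the study removes the miRNA-processing enzyme, the longest annotated 3′ untranslated region of each gene was searched for 7-base sites that pair with bases 2 to 8 of 12 miRNAs known from liver. The 12 were let-7a-5p, miR-101a-3p, miR-148a-3p, miR-192-5p, miR-194-5p, miR-21a-5p, miR-22-3p, miR-26a-5p, miR-27b-3p, miR-29a-3p, miR-30a-5p and miR-33-5p. Angptl4 held sites for 2 of the 12, for miR-29a-3p and miR-101a-3p, and the other 7 genes held none of these. Sites of all other liver miRNAs, miR-122 included, were not searched, so the 7 genes may hold some. Its untranslated region was also the longest, at 1637 bases, against 74 to 377 bases in the others, and the part of length in this count was not tested. A miR-29a-3p site was present in 15.7% and a miR-101a-3p site in 11.5% of the 12612 untranslated regions of tested genes. The pairs are shown because Angptl4 is the gene that rose; capitals mark the seed in the miRNA (RefSeq, GRCm38.p6) and its match in the transcript (GENCODE M21), each 5′ to 3′.
miR-29a-3p: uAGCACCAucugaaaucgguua
Angptl4 site for miR-29a-3p, starting at base 394 of the untranslated region: gatacactcaTGGTGCTgttgtaggtg
miR-101a-3p: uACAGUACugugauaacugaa
Angptl4 site for miR-101a-3p, starting at base 1282: aacagggtgaGTACTGTagatgtagct
A seed match is a description of the sequence; pairing in these livers was not measured.

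Angptl8 (ENSMUSG00000047822.8, chromosome 9, 21835510 to 21837347, plus strand) encodes an inhibitor of lipoprotein lipase that acts after a meal. It was at 7.25, 10.5 and 4.10 CPM in Dicer LKO and at 132, 13.1 and 14.3 CPM in the controls. Although the groups did not overlap, control replicate 1 alone was an order of magnitude above the other controls. The means were 7.28 ± 3.19 CPM in Dicer LKO and 53.2 ± 68.5 CPM in the controls, with a log2 fold change of −2.88 (SE 1.10) that was not called (adjusted p = 0.223, edgeR). Without control replicate 1 it was −0.92, with an adjusted p of 0.204 by the same test, and without control replicate 3 it was −3.28. The gene lies within an intron of Dock6 on the opposite strand, and the strand setting of the counts is not given; Dock6, at 10.3 to 11.6 CPM in Dicer LKO and 14.9 to 25.5 CPM in the controls, did not share the high value of control replicate 1.

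The 2 genes whose profiles over the 6 libraries were closest to that of Angptl8 were Aacs, which encodes acetoacetyl-CoA synthetase, and Mid1ip1, which promotes polymerisation of acetyl-CoA carboxylase. Their root mean square differences from Angptl8 were 0.629 and 0.805. Aacs was at 22.4 to 27.1 CPM in Dicer LKO and at 192, 30.5 and 39.5 CPM in control replicates 1, 2 and 3. The 17 genes of the list for ChREBP and SREBP-1c, the transcription factors that turn on glycolysis and fatty acid synthesis after feeding, all had negative log2 fold changes, with a median of −0.75. None was called by edgeR (7 of 17 had an unadjusted p under 0.05) or limma voom, 2 were called lower without the filter on low counts and 6 by DESeq2. Fatty acid synthase (Fasn) was at 295, 208 and 289 CPM in Dicer LKO and at 1247, 482 and 685 CPM in the controls (log2 fold change −1.61, SE 0.36, adjusted p = 0.0773, edgeR). The desaturase Scd1 was at 2983, 629 and 4714 CPM in Dicer LKO and at 5957, 3277 and 4722 CPM in the controls, so that its groups overlapped. Control replicate 1 was the highest library for 12 of the 17 genes, and without it the median was −0.48, with 13 negative and 4 positive.

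**Figure D2:**
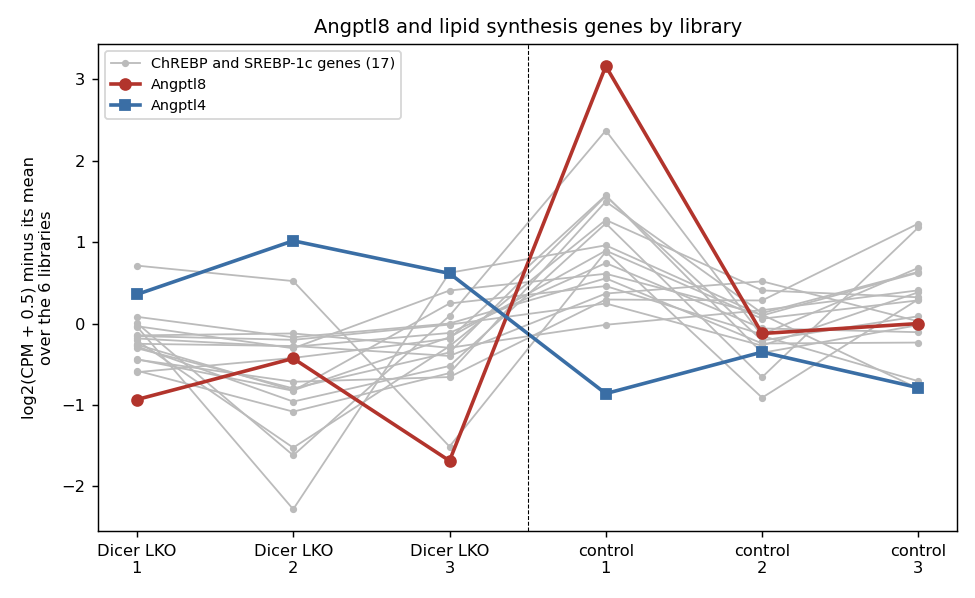
Centred log2(CPM + 0.5) of Angptl8, Angptl4 and 17 ChREBP and SREBP-1c genes in each library; a line joins the values of 1 gene and the replicate numbers have no order. Angptl8 peaks in control replicate 1, which is also the highest library for 12 of the 17 lipid synthesis genes, while Angptl4 is higher in the 3 Dicer LKO libraries than in the controls.

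Angptl6 (ENSMUSG00000038742.7, chromosome 9, 20873808 to 20879727, minus strand) encodes a circulating protein that counters obesity when overexpressed in mice. It was at 6.24, 5.29 and 5.18 CPM in Dicer LKO and at 8.52, 7.88 and 6.44 CPM in the controls. All Dicer LKO values were below all control values, the nearest pair being 6.24 and 6.44 CPM. The log2 fold change was −0.45 (SE 0.18, adjusted p = 0.208, edgeR), and −0.54 without control replicate 3. Its exons overlap those of A230050P20Rik on the other strand, at 21.0 to 36.5 CPM in Dicer LKO and 22.4 to 55.7 CPM in the controls, so reads from the shared stretch cannot be told apart.

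Around these lipase inhibitors, the list of 15 genes of the lipoprotein lipase axis had 1 called higher and 0 lower by edgeR, with a median of −0.03 and 4 genes at an unadjusted p under 0.05. DESeq2 called 2 higher and 2 lower, and the fit with the replicate block 1 higher and 1 lower. The gene called higher by edgeR was Cd36, the fatty acid transporter, at 123, 129 and 163 CPM in Dicer LKO and at 28.9, 21.2 and 43.9 CPM in the controls (log2 fold change 2.14, SE 0.27, adjusted p = 0.0201, edgeR). Its call was lost without Dicer LKO replicate 1 or 3, with adjusted p-values of up to 0.0681 by the same test, and no gene of the list was called by limma on log2 TPM. The endocytic receptor Lrp1 was at 1701 ± 238 CPM in Dicer LKO and 2322 ± 717 CPM in the controls (n = 3 each) and was not called. Of 6 tested genes among the other angiopoietin-like and angiopoietin genes, 5 had positive values, with a median of 0.69 (0.36 without both libraries numbered 2 and 0.44 without Dicer LKO replicate 2). None was called by edgeR (1 had an unadjusted p under 0.05), DESeq2 or voom. Angptl2 was at 25.9 to 29.6 CPM in Dicer LKO and 17.2 to 22.4 CPM in the controls, without overlap and without a call (adjusted p = 0.112, edgeR).

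Fgf21 (ENSMUSG00000030827.5, chromosome 7, 45613886 to 45615490, minus strand) was near the detection limit. Its counts were 18, 33 and 6 in Dicer LKO and 12, 3 and 9 in the controls, or 0.826, 1.57 and 0.239 CPM in Dicer LKO and 0.541, 0.144 and 0.574 CPM in the controls. The highest library was Dicer LKO replicate 2 and the groups overlapped. The log2 fold change of 1.06 had an SE of 0.74 (adjusted p = 0.456, edgeR). It was −0.05 when the libraries numbered 2 were left out of both groups, so the direction rested on them. Without control replicate 3 it was 1.34, and no difference was detected, at low counts and with a wide spread among the Dicer LKO libraries. The Fgf21 profile was closest to those of the acyltransferase gene Lpgat1 and of Fam35a (0.193 and 0.195). At 0.144 to 1.57 CPM, the 0.5 added before the log shrinks the differences between its libraries, so this likeness is uncertain. Exocrine pancreas, which also expresses Fgf21, was represented by 9.72 CPM of its 8 markers in Dicer LKO replicate 2, all from Cela2a, with 3 of the markers (Cpa1, Cel and Cela3b) at 0 in every library; its part in the value was not tested.

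The receptors of the hormone are expressed in the liver too. The 5 genes of the FGF receptor complex had a median of −0.06, with 0 called by edgeR (0 had an unadjusted p under 0.05), DESeq2 or voom. Klb, which encodes β-Klotho, was at 54.5 ± 1.91 CPM in Dicer LKO and 45.2 ± 14.8 CPM in the controls, and Fgfr2 at 54.0 ± 2.34 CPM in Dicer LKO and 61.2 ± 11.6 CPM in the controls (SD, n = 3 each), each with overlapping groups. Of 20 PPARα genes, 1 was called higher and 0 lower by edgeR, with 13 positive values and a median of 0.13. With library totals as the scale the list stood at 10 positive, 10 negative and 0.00. The 4 with an unadjusted p under 0.05 were Cyp4a14, Cyp4a10, Cyp4a31 and Vnn1, all higher in Dicer LKO. DESeq2 called 3 higher and 0 lower, and the fit with the replicate block 1 higher and 1 lower. Cyp4a14, the fatty acid ω-hydroxylase that edgeR called, was at 51.1, 201 and 181 CPM in Dicer LKO and at 5.63, 1.49 and 3.44 CPM in the controls (log2 fold change 5.35, adjusted p = 0.0461, edgeR). The split of its reads from close Cyp4a paralogs is uncertain, and its call was lost without the filter on low counts and in 4 of the 6 fits that left out a library (number 2 or number 3 of either group), with values of 5.01 to 5.90. Among 17 tested genes of the ATF4 and integrated stress response list, the median was 0.36 and 11 were positive. None was called by edgeR (5 had an unadjusted p under 0.05) or voom, and 2 were called higher by DESeq2. The median was 0.07 without both libraries numbered 2, 0.14 without control replicate 1 and 0.18 without Dicer LKO replicate 2. Atf4 itself was at 51.4, 71.3 and 51.4 CPM in Dicer LKO and at 76.0, 69.1 and 83.2 CPM in the controls (log2 fold change −0.39, adjusted p = 0.233, edgeR), and Atf5 at 53.7 to 105 CPM in Dicer LKO and 28.8 to 107 CPM in the controls.

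The promoters of Fgf21 and Angptl8 are shown because, of the 7 hepatokine genes searched, only these 2 held the C/EBP-ATF response element TGATGCAAT. ATF4 acts on Fgf21 through this element. The log2 fold changes with all libraries were 1.06 for Fgf21 and −2.88 for Angptl8, and neither was called. That of Fgf21 was −0.05 without both libraries numbered 2, so whether the 2 transcripts share a direction is undecided. No promoter window was available for Angptl4, so none of the 4 motifs was searched there. Each window runs from 250 bases before to 50 bases after a start annotated by RefSeq, which can differ from the GENCODE gene ends given with each gene. The 4 motifs below were searched on both strands: TGATGCAAT, present in 0.192% of 32851 RefSeq promoter windows (GRCm38.p6), the E-box CACGTG in 7.15%, the PPAR direct repeat AGGTCANAGGTCA in 0.0396% and TATAAA in 13.6%. No listed motif overlapped another. Of the 7 genes with a window, Fgf21 held the first motif on the opposite strand starting 140 bases before the start, an E-box 50 bases before it and TATAAA 28 bases before it, and Angptl8 held the first motif 130 bases before the start. A Gdf15 window held an E-box 83 bases before its start. Capitals mark these matches, and sequences run 5′ to 3′ on the strand of the gene. A match shows the letters only.
Fgf21 promoter, chr7:45615441-45615740, minus strand: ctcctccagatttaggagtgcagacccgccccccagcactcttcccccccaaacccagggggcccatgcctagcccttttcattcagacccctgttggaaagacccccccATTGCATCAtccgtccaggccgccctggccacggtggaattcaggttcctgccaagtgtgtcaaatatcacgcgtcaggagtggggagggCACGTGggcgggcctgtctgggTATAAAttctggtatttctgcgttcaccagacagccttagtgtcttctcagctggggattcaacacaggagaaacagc
Angptl8 promoter, chr9:21835260-21835559, plus strand: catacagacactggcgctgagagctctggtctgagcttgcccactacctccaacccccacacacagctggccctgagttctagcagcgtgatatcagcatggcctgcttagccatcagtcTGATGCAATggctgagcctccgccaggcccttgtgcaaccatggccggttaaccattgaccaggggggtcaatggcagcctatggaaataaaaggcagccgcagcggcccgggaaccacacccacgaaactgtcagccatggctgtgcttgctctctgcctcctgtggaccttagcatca

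Gdf15 (ENSMUSG00000038508.7, chromosome 8, 70629393 to 70632456, minus strand), another gene that stress responses switch on, was at 1.61, 3.19 and 2.11 CPM in Dicer LKO and at 2.88, 3.03 and 5.36 CPM in the controls. Dicer LKO replicate 2 made the groups overlap. The highest value was that of control replicate 3, the library with muscle transcripts, and the part of that tissue in the value was not tested. The log2 fold change was −0.70 (SE 0.35, adjusted p = 0.302, edgeR) with all libraries and −0.34 without control replicate 3. Over the 6 libraries its profile was closest to those of Ppp1r3c, a subunit that directs a phosphatase to glycogen, and of the Rab GTPase-activating gene Tbc1d4, with root mean square differences of 0.114 and 0.130 on the centred log2 scale. The receptor gene Gfral had 0 counts in every library, where the floor is 3 counts per library, and neither its partner Ret nor the LECT2 receptor gene Cd209a passed the filter on low counts.

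The fetuins, which belong to the cystatin superfamily and lie next to each other on chromosome 16, varied alike across libraries. Ahsg (ENSMUSG00000022868.5, 22891277 to 22899449, plus strand) was at 10440, 12251 and 9955 CPM in Dicer LKO and at 6683, 6782 and 4079 CPM in the controls. Fetub (ENSMUSG00000022871.12, 22918334 to 22939778, plus strand) was at 512, 623 and 508 CPM in Dicer LKO and at 380, 442 and 271 CPM in the controls. Both were highest in Dicer LKO replicate 2, lowest in control replicate 3 and without overlap between the groups. The means of Ahsg were 10882 ± 1210 CPM in Dicer LKO and 5848 ± 1533 CPM in the controls (SD, n = 3 each), a ratio of 1.86 with a log2 fold change of 0.90 (SE 0.29, adjusted p = 0.142, edgeR). Those of Fetub were 548 ± 65.2 CPM in Dicer LKO and 364 ± 86.5 CPM in the controls (SD, n = 3 each), with a log2 fold change of 0.59 (SE 0.23, adjusted p = 0.199, edgeR). Neither was called. DESeq2 called Ahsg (adjusted p = 0.00505) with the same fold change.

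Without control replicate 3 the log2 fold changes were 0.71 for Ahsg and 0.43 for Fetub. Ahsg took 1.02%, 1.10% and 0.998% of all counts in Dicer LKO and 0.669%, 0.687% and 0.452% in the controls. There were 4.81, 4.99 and 4.95 Fetub transcripts per 100 Ahsg transcripts (TPM) in Dicer LKO, against 5.50, 6.35 and 6.48 in the controls. The genes with the most similar profile to Ahsg were the lysosomal protease Lgmn and the lipid export gene Tm6sf2 (0.0576 and 0.0909), and those closest to Fetub were Abi2 and the heparanase gene Hpse (0.0370 and 0.0550). Exons of Ahsg overlap the antisense gene Gm30505, which was not analysed here, so the strand of these reads is uncertain. The RefSeq window of Ahsg lies inside the GENCODE gene, downstream of its first base, so the start most upstream was not searched. The promoters are shown for comparison, since the pair varied alike; of the 4 motifs, Ahsg held none and the first Fetub window held TATAAA 31 bases before the start (capitals).
Ahsg promoter, chr16:22891765-22892064, plus strand: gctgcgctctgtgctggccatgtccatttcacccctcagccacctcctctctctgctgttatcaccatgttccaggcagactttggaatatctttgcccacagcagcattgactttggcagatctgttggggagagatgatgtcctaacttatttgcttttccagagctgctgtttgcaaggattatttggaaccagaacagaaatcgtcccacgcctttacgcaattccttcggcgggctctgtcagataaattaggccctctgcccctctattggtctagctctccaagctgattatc
Fetub promoter, chr16:22918132-22918431, plus strand: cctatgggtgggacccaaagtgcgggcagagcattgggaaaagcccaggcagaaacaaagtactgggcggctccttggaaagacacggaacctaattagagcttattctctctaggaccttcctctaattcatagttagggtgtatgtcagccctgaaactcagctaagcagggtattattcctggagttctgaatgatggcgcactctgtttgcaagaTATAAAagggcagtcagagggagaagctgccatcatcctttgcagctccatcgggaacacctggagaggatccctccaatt

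The other cystatin superfamily genes included Kng1, the kininogen gene, at 2878, 3355 and 2864 CPM in Dicer LKO and 2337, 2586 and 1126 CPM in the controls, and Hrg, which encodes histidine-rich glycoprotein, at 597 ± 83.8 CPM in Dicer LKO and 620 ± 197 CPM in the controls. Of the 5 in the list, 4 had positive values and the median was 0.45, with 0 called by edgeR (2 had an unadjusted p under 0.05), DESeq2 or voom. The reads of Kng1 and its paralog Kng2 may be split with error. Of 9 insulin receptor signalling genes, 0 were called by edgeR (3 had an unadjusted p under 0.05) or voom and 2 by DESeq2, 1 in each direction. Their median was 0.04, and −0.10 with library totals. The receptor gene Insr was at 193 ± 6.41 CPM in Dicer LKO and 259 ± 33.5 CPM in the controls (SD, n = 3 each), without overlap (adjusted p = 0.194, edgeR). Igfbp1, a binding protein of insulin-like growth factors, was at 98.7, 539 and 299 CPM in Dicer LKO and 16.1, 57.3 and 43.8 CPM in the controls (adjusted p = 0.108, edgeR).

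Lect2 (ENSMUSG00000021539.8, chromosome 13, 56542464 to 56548502, minus strand) was at 65.5, 32.8 and 71.4 CPM in Dicer LKO and at 83.9, 73.6 and 56.6 CPM in the controls. Dicer LKO replicate 2 lay below every other library, and the groups overlapped. The log2 fold change was −0.34 (SE 0.30, adjusted p = 0.564, edgeR), −0.02 without Dicer LKO replicate 2 and −0.45 without control replicate 3. Its profile was closest to those of Izumo4 and of the liver glutaminase gene Gls2, with differences of 0.0676 and 0.0966. Gls2 was likewise lowest in Dicer LKO replicate 2, at 122 CPM, against 242 and 307 CPM in the other Dicer LKO libraries and 221 to 349 CPM in the controls. The receptor genes Met, at 169 ± 7.48 CPM in Dicer LKO and 162 ± 33.5 CPM in the controls, and Tie1, at 13.5 ± 0.352 CPM in Dicer LKO and 13.9 ± 2.15 CPM in the controls, had log2 fold changes of 0.06 and −0.04.

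Dicer LKO replicate 2 also had the highest acute phase transcripts. It was the highest library for 20 of 21 positive acute phase genes, of which 21 had positive values, with a median of 1.31. By edgeR 1 was called higher and 0 lower, with 7 at an unadjusted p under 0.05; 6 were called higher by DESeq2, 7 with the replicate block and 4 without both libraries numbered 2. The gene called by edgeR was the transcription factor gene Cebpd, at 16.4, 30.8 and 25.0 CPM in Dicer LKO and at 6.99, 8.07 and 4.59 CPM in the controls (log2 fold change 1.87, adjusted p = 0.0347, edgeR), called in 1 of the 6 fits without a library and not in limma voom. Haemopexin (Hpx) was at 10637, 19863 and 10389 CPM in Dicer LKO and at 3966, 10050 and 1813 CPM in the controls. Control replicate 2 stood above the other controls in these genes. The median centred log2 value of the list was 0.33 in it, against −0.94 and −1.33 in control replicates 1 and 3. Saa1 was at 2911 CPM in control replicate 2 and at 28.8 and 10.1 CPM in control replicates 1 and 3. Without Dicer LKO replicate 2 the median of the list was 0.78, and without control replicate 2 it was 2.07. Of 8 negative acute phase genes 0 were called by edgeR (1 had an unadjusted p under 0.05) or voom and 1 was called higher by DESeq2. Their median was −0.03 with 2 positive, but 0.14 without Dicer LKO replicate 2 and 0.16 without control replicate 1, each with 6 positive. The list held albumin (Alb), at 48311 ± 2801 CPM in Dicer LKO and 34246 ± 15454 CPM in the controls (n = 3 each), and transferrin (Trf), at 45294 ± 18702 CPM in Dicer LKO and 16036 ± 5544 CPM in the controls. The part of the acute phase transcripts in the values of Lect2, Ahsg and Fetub was not tested.

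Among 18 tested genes of other hepatokines, 1 was called higher and 0 lower, with 9 positive and 9 negative values and a median of 0.18. That median was 0.46, 0.38 and 0.37 without control replicates 1, 2 and 3 in turn, and 0.12 without Dicer LKO replicate 2. The riser was Apoa4, a lipoprotein component, at 563, 2040 and 470 CPM in Dicer LKO and at 90.1, 56.7 and 65.7 CPM in the controls (log2 fold change 3.85, SE 0.64, adjusted p = 0.0495, edgeR). It was called in 1 of the 6 fits without a library, with values of 2.91 to 4.20, and was not called with RLE factors or library totals. Selenop, which carries selenium to other organs, was at 6551, 7370 and 6500 CPM in Dicer LKO and at 5789, 4930 and 3460 CPM in the controls, without overlap and without a call (adjusted p = 0.307, edgeR).

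Without control replicate 3 the list medians were −0.11 for the FGF receptor complex, 0.00 for the GDF15 and LECT2 receptors, 0.16 for PPARα genes, 0.38 for ATF4 genes, −0.73 for ChREBP and SREBP-1c genes and 0.01 for the lipoprotein lipase axis. They were 0.59 for the other angiopoietin-like genes, 0.31 for the cystatin superfamily, 0.05 for insulin signalling, −0.18 for negative and 1.06 for positive acute phase genes. Over the fits that left out 1 library, medians near 0 took either sign for the FGF receptor complex (−0.21 without Dicer LKO replicate 3 to 0.04 without Dicer LKO replicate 1), the lipoprotein lipase axis (−0.24 without Dicer LKO replicate 3 to 0.13 without control replicate 1) and insulin signalling (−0.14 without Dicer LKO replicate 2 to 0.11 without Dicer LKO replicate 3), and that of PPARα genes was 0.29 without control replicate 1 and 0.22 without Dicer LKO replicate 3. Without control replicate 3 Cd36 was called, and Cyp4a14, Apoa4 and Cebpd were not.

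**Figure D3:**
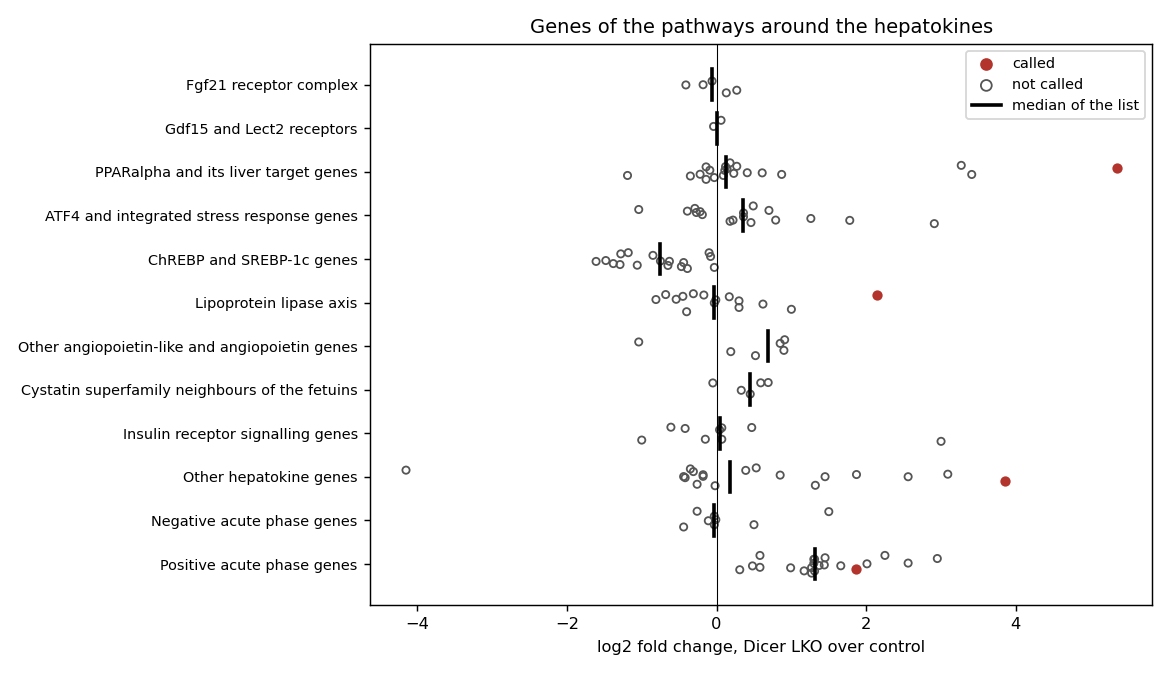
Log2 fold changes, Dicer LKO over control, of the tested genes of 12 lists around the hepatokines; filled points were called by edgeR, bars are list medians and some genes stand in 2 lists. The called genes are Cyp4a14, Cd36, Apoa4 and Cebpd, all higher, and the 17 ChREBP and SREBP-1c genes lie below 0 without a call.

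The 8 fold changes differed in how far they depended on single libraries. Those of Angptl4, Ahsg and Fetub were positive and those of Angptl6 and Gdf15 negative in all 16 other fits, with 0.71 to 1.04 for Ahsg, 0.43 to 0.78 for Fetub, −0.56 to −0.36 for Angptl6 and −1.10 to −0.34 for Gdf15. Angptl8 kept its sign as well but ran from −3.66 to −0.92, and DESeq2 gave it a value (−2.87) without a p-value. Fgf21 ran from −0.05 to 1.52, and Lect2 from −0.53 to −0.00, the last without both libraries numbered 2. These fits reuse the same libraries.

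**Figure D4:**
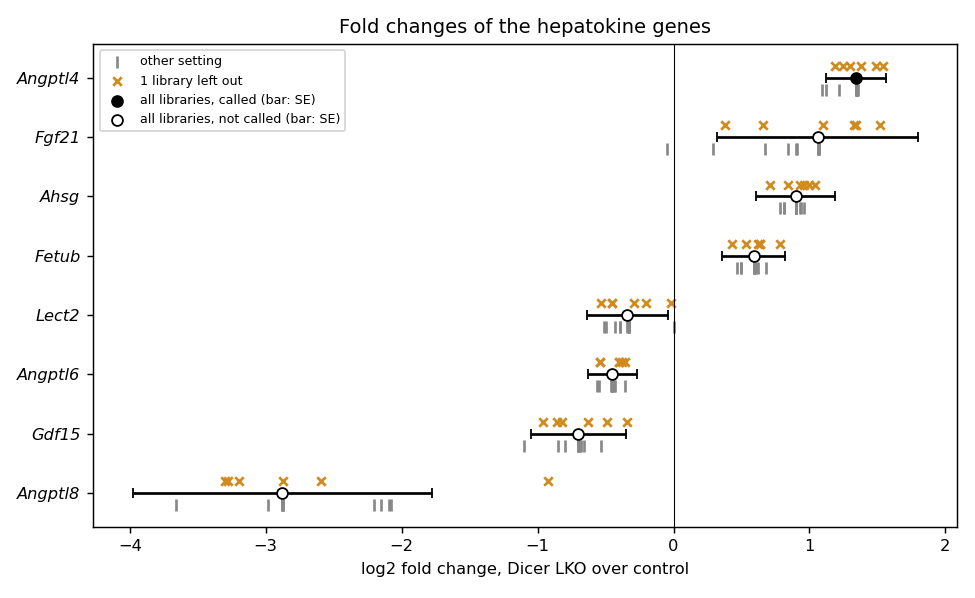
Log2 fold changes (Dicer LKO over control) of the 8 genes with all libraries (circles, bars are SE), with 1 library left out (crosses) and under other settings (ticks). Angptl4 lies between 1.09 and 1.54 in every fit, while Angptl8 moves to −0.92 without control replicate 1 and Fgf21 reaches −0.05 without the libraries numbered 2.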

How the data were processed

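RNA of whole liver was sequenced in 3 Dicer LKO and 3 control samples, grouped by their titles. For each sample the authors deposited expected counts, which are not normalized, and TPM values of 50600 genes. The columns are those of RSEM, per the file headers. CASAVA, Bowtie and hg19, a human build, are named without versions in the submitters' processing notes, although the identifiers are mouse. No source used here gives the counting program, its strand setting or the mouse build. GENCODE M21 (GRCm38) matched 99.56% of the identifiers and gave all gene coordinates.

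Expected counts were rounded, filtered with filterByExpr, scaled with TMM and compared by the quasi-likelihood test of edgeR 4.0.16 (robust setting) in R 4.3.3, fitting genotype alone. Each SE was taken as the size of the log2 fold change over the root of its F statistic. The pipeline was tested on simulated data. Alternatives used limma 3.58.1 and DESeq2 1.42.0. No 2 libraries were near-identical (chi-square per gene 18.0 or more). The most alike were Dicer LKO replicates 1 and 3, at 18.0, and every other pair was at 51.3 or more. The 8 genes and the lists were chosen with earlier results of these data known. Named from each list were up to 4 called genes, or the most abundant up to 2; some genes of this rule are not reported here. Profile neighbours were the 2 genes with the smallest root mean square difference, for genes spanning at least 1 on the log2 scale. The motifs and the 12 miRNAs were chosen after values were seen.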

Additional observations from a re-analysis of the deposited data

How the results depend on the processing

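The number of hepatokine genes called was 1 (Angptl4) in edgeR with RLE factors, with library totals, without mitochondrial genes, without a filter and in limma voom. It was 2 with DESeq2 (Ahsg added), which gave Angptl8 no p-value. It was 0 with limma on log2(TPM + 0.1) or log2(TPM + 1), where Angptl4 was at 1.12 and 1.09 (adjusted p = 0.0535 and 0.0601, limma). It was also 0 without both libraries numbered 2, and 0 without each library in turn. The reversal of Fgf21, to −0.05, arose without both libraries numbered 2, a fit with fewer samples. Over all genes, 185 were called (57.3% higher), against 1098 with DESeq2 (44.4% higher), 422 without a filter, 103 with library totals, 92 with voom, 74 and 67 with log2(TPM + 0.1) and log2(TPM + 1), 23 without both libraries numbered 2, and 23 to 389 without each library in turn (19.5% to 82.1% higher). The main fit covered 14314 genes, but DESeq2 and the fit without a filter each covered 23659. Fits without 1 library covered 14653 to 14809. Library totals shifted the median of all genes to −0.13 and log2(TPM + 0.1) to −0.12. Dicer1 passed the threshold with DESeq2 (−0.99) and without a filter (−0.98), and ran from −1.15 (called) to −0.79 without each library. The causes were not tested. With the replicate number as a block, 245 genes and 1 of the 8 were called, and the paired fit changed no call among the 8. The deviations of same-numbered libraries correlated at 0.124, 0.061 and −0.121, and those of differently numbered libraries at −0.184 to 0.128. Not every library correlated best with the one of its own number. With 3 libraries a group, these values cannot decide whether same-numbered libraries were paired or shared a batch. With 3 samples a group an exact permutation test cannot go below 0.1.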
